A study of Mus musculus with 10 samples.

Results

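The genes described here are named for the chymotrypsins and elastases of the exocrine pancreas in mice: Ctrb1, Ctrl, Ctrc, Cela1, Cela2a, Cela3a and Cela3b. They were taken by symbol from a table of RNA-seq read counts, and all 7 symbols were among its 24421 gene rows. RNA came from a piece of the pancreas tail of female mice aged 12 weeks, and each of the 10 libraries was made from a different mouse. The groups differed in how many copies of Insr, which encodes the insulin receptor, were floxed: 0 in the 3 Insr WT libraries (w/w), 1 in the 3 Insr Het libraries (w/f) and 2 in the 4 Insr KO libraries (f/f). All groups, WT included, carried Ptf1aCreER, a tamoxifen-inducible Cre under the control of the acinar gene Ptf1a, and the nTnG nuclear fluorescent reporter. The Cre acts in cells that express Ptf1a, whereas the RNA was from all cells of the tissue piece, so fewer acinar cells and less RNA per acinar cell cannot be told apart. The labels count 1 more WT mouse, which was not analysed here. The title of the series raises the question of whether acinar insulin receptor signalling promotes the making of digestive enzymes.

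Chymotrypsins and elastases are serine proteases that acinar cells store as inactive precursors in zymogen granules and release into the gut. There, trypsin, itself switched on by enteropeptidase, cleaves and activates them. Chymotrypsins cut proteins after large hydrophobic residues, and the pancreatic elastases cut after other, mostly smaller, hydrophobic residues. Transcription of such genes in acinar cells depends on PTF1, a complex of PTF1A, an E-protein and RBPJL, which binds an E-box together with a nearby TC-box. In these libraries the 7 genes together took 6.07% to 31.5% of all gene counts. None differed between the Insr genotypes past the threshold of the test. All 7 had their lowest CPM in the same WT library. Ctrb1 was nevertheless high there relative to the sum of the other digestive enzymes, as were some of those enzymes. Ctrc lay at 2 widely separate levels within both the Het and the KO group.

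Coordinates are those of GENCODE M21 on GRCm38 (mm10), and all 7 genes are on the minus strand. Ctrb1 (ENSMUSG00000031957.6), the main mouse chymotrypsinogen B, is at chr8:111686519-111691010, and Ctrl (ENSMUSG00000031896.7), chymotrypsin-like, is at chr8:105932003-105933862. Cela1 (ENSMUSG00000023031.8) is alone on chromosome 15, at chr15:100674421-100687921. The other 4 genes lie on chromosome 4 as neighbouring pairs. Cela3a (ENSMUSG00000078520.3; chr4:137401554-137409791) is next to Cela3b (ENSMUSG00000023433.8; chr4:137420999-137430540). Cela2a (ENSMUSG00000058579.5; chr4:141814962-141826160) lies inside the GENCODE span of Ctrc (ENSMUSG00000062478.16; chr4:141814962-141846359), because 1 long Ctrc transcript model runs into Cela2a. GENCODE lists Ctrc as protein coding, whereas RefSeq gives it as a transcribed pseudogene at chr4:141838239-141846287, a span that does not reach Cela2a. The gene span of Cela2a also overlaps Casp9, a caspase gene.

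RefSeq promoter sequences of GRCm38.p6, running from 250 bases before to 50 bases after the start site, were found for 6 of the 7 genes, all but Ctrc. They were searched on both strands for the E-box letters CACCTG and the TC-box letters TTTCCC, which PTF1 is known to bind. The promoters of 4 genes are shown here, with matches on either strand in capitals. The near-identical pair Cela3a and Cela3b is shown because their levels differed so widely, and Cela1 and Ctrb1 because their ratio differed widely between libraries.
Cela3a promoter, chr4:137409742-137410041, minus strand: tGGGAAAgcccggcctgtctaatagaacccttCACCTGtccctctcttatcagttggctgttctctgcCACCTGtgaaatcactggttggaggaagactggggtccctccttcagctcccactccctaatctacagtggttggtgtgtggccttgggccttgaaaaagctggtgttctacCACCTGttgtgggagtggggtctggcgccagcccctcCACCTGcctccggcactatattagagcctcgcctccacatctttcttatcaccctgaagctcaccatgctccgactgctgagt
Cela3b promoter, chr4:137430471-137430770, minus strand: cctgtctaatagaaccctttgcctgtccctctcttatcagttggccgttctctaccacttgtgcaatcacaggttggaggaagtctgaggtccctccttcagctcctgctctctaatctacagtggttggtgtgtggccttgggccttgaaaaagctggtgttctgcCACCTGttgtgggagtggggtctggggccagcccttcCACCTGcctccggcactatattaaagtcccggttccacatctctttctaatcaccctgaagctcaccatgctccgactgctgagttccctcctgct
Cela1 promoter, chr15:100687871-100688170, minus strand: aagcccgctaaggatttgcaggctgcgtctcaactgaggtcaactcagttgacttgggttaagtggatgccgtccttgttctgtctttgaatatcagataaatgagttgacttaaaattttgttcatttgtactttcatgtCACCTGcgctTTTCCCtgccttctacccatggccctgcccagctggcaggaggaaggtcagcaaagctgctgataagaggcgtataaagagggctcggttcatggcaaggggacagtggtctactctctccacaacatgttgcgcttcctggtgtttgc
Ctrb1 promoter, chr8:111690961-111691260, minus strand: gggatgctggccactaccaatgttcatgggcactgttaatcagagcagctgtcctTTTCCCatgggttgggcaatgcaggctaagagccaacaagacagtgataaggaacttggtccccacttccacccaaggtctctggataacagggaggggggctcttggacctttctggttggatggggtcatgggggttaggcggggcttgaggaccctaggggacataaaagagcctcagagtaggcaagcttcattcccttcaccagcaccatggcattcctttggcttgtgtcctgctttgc

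The promoter of Cela1 held both letter strings close together, with CACCTG starting at -109 and TTTCCC at -99 from the start site. That of Ctrb1 held TTTCCC at -195 and no CACCTG. Other spellings of an E-box, such as the CAGCTG just before this TTTCCC, were not searched for. Cela3a and Cela3b shared the pair of E-box matches nearest the start, at -70 and -33 in Cela3a and at -83 and -46 in Cela3b. Cela3a held a pair more, at -218 and -182, and a TC-box match at -249. The Cela3b sequence begins at bases that come after this TC-box match in Cela3a. The matching stretch of Cela3b was therefore not searched. Aligned to each other, these promoters were identical at 266 of 287 aligned bases (92.7%). Over the 6 promoters, 5 held CACCTG and 4 held TTTCCC, beside 20.2% and 25.2% of the 32851 RefSeq promoters of the same length. Both strings stood in 3 of 6 (Cela1, Cela2a and Cela3a), beside 4.86% of all promoters. A match describes these letters only, and binding was not measured.

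Library depth was similar across groups, from 11718559 to 19024351 gene counts. The widest Wilson 95% interval of any of the genes' shares of a library's counts was 0.0348 percentage points, and such intervals cover counting error only. The library WT-2404 stood apart from the other 9. Its chymotrypsin and elastase counts made up 6.07% of gene counts, against 24.9% to 31.5% elsewhere, and the other 28 digestive enzyme genes 9.86%, against 33.7% to 48.4% elsewhere. Its summed CPM was the highest of all libraries for the fibroblast (5535), myeloid (1198) and ductal (1215) marker lists. CPM is a gene's count scaled to a common library size with TMM, which leaves out extreme genes, and expressed in counts-per-million; the TMM factor of WT-2404 was 3.54, and its CPM values are correspondingly low. Fold changes of the genes and medians of the gene lists are given with and without it. Insr itself stood at 21.0 to 44.2 CPM in the 10 libraries. Its KO against WT log2 fold change was 0.09 (edgeR adjusted p = 0.864), and -0.12 without WT-2404 (edgeR adjusted p = 0.889). Gene-level counts do not show whether a floxed exon was lost.

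The summed share of the 7 genes was 6.07%, 24.9% and 28.2% of gene counts in WT-2404, WT-1860 and WT-2067. In the Het libraries it was 29.3%, 31.4% and 28.2%, and in the KO libraries 25.7%, 31.5%, 27.4% and 29.3%. The WT mean was 19.7% ± 11.9 (SD, n = 3), the Het mean 29.6% ± 1.67 (SD, n = 3) and the KO mean 28.5% ± 2.51 (SD, n = 4). WT-2067 lay within both the Het and the KO range, WT-1860 just below the KO range, and WT-2404 far below. Measured against the other digestive enzymes, the WT libraries had 66.7 ± 6.40 counts of the 7 genes per 100 counts of those enzymes (SD, n = 3), the Het libraries 67.7 ± 3.06 (SD, n = 3) and the KO libraries 65.7 ± 9.43 (SD, n = 4). On that measure WT-2404, at 61.6, lay within the range of the KO libraries, 56.4 to 77.8, but the sum there was mostly Ctrb1. By itself, Ctrb1 had 52.0 counts per 100 counts of the other enzymes in WT-2404, the highest of all libraries (16.2 to 30.5 in the other 9). Ctrl (1.25), Cela1 (2.70) and Cela2a (2.06) were the lowest of all libraries. The other enzymes were unequally low there too, with 1671341 counts in sum against 3949225 to 8342638 elsewhere. Try5 had 236002 counts in WT-2404 against 74742 to 179369 elsewhere, and Pnliprp1 282127 against 248651 to 584274. Pnlip had 110849 against 681041 to 1956585. Being high relative to that sum was thus not particular to Ctrb1.

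**Figure D1:**
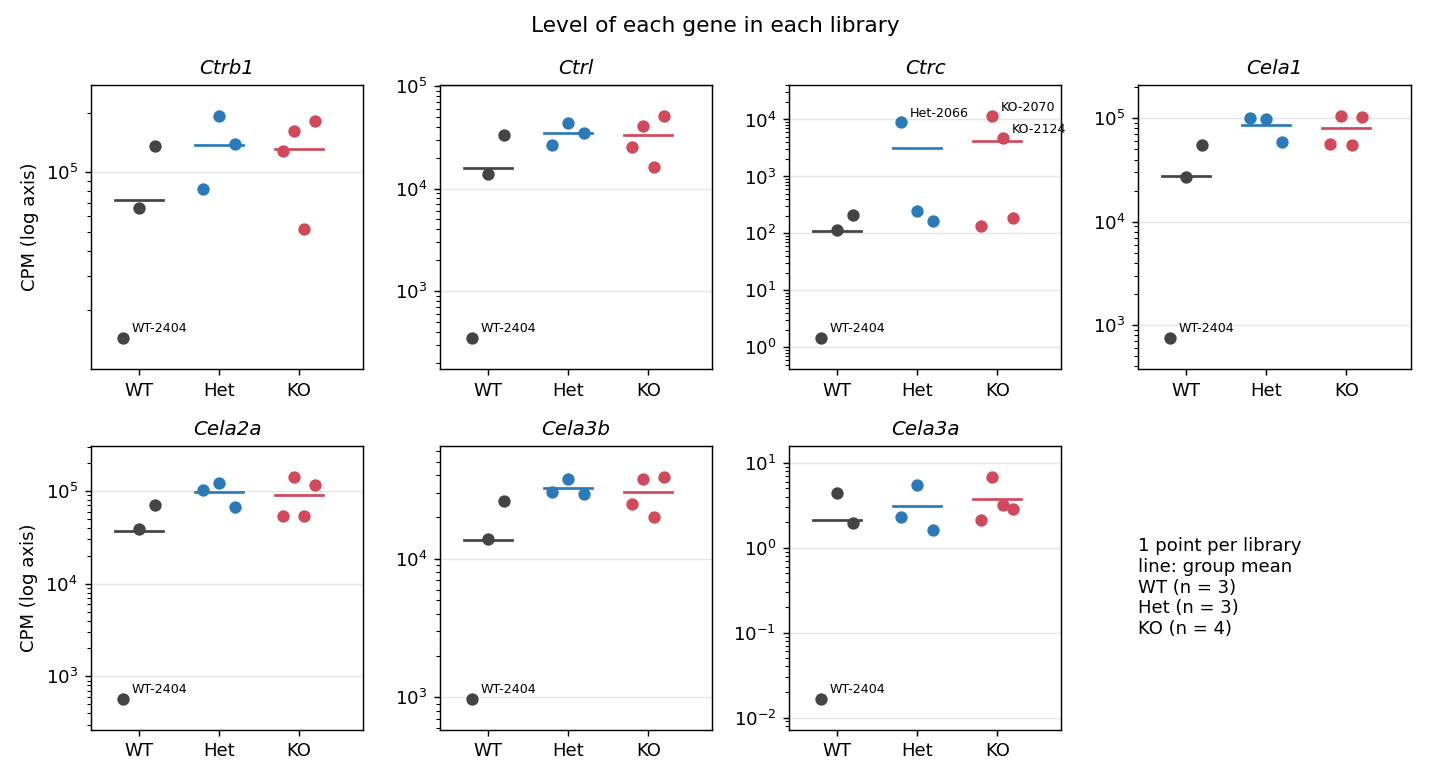
Level of each gene in CPM (log axis, with a scale of its own in each panel) in the WT, Het and KO libraries, 1 point per library and a line at the group mean. WT-2404 is the lowest library in every panel, and in the Ctrc panel Het-2066, KO-2070 and KO-2124 lie between 4704 and 11510 CPM, above the 7 others at 1.47 to 252 CPM.

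Among the chymotrypsins, Ctrb1 was the most abundant per kilobase of transcript. Its level was 14536, 65786 and 136137 CPM in WT-2404, WT-1860 and WT-2067, 82605, 192117 and 138579 CPM in Het-2066, Het-1770 and Het-2042, and 127738, 161764, 51374 and 181953 CPM in KO-2079, KO-2070, KO-2124 and KO-2126. The groups overlapped, since KO-2124 was below 2 of the 3 WT libraries and Het-2066 below 1 of them. Per kilobase of transcript it was the highest of the 7 genes in 9 libraries, and Cela2a was the highest in Het-2066. Between KO and WT libraries Ctrb1 differed by 0.86 on the log2 scale (SE 0.89, edgeR adjusted p = 0.575), and by 0.35 without WT-2404.

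Ctrl encodes a second, chymotrypsin-like protease. It was counted at 349, 13812 and 33089 CPM in the WT libraries, 26667, 43676 and 34681 CPM in the Het libraries and 25471, 40384, 16298 and 51117 CPM in the KO libraries, in the library order used for Ctrb1. WT-2067 lay inside both the Het and the KO range, and the other WT libraries were below both. In WT-2404 it was further below the other libraries than Ctrb1 was: Ctrl made up 0.123% of its gene counts, against 2.15% to 3.05% in the other 9 libraries. KO against WT gave a log2 fold change of 1.08 (SE 1.02, edgeR adjusted p = 0.532), and 0.48 without WT-2404.

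Ctrc is named for chymotrypsin C, known in other species for regulating trypsinogen activation and breakdown. RefSeq gives the mouse gene as a transcribed pseudogene, and whether a protein is made was not measured. Its raw counts were 88, 2137 and 3459 in the WT libraries, 102741, 2702 and 2708 in Het-2066, Het-1770 and Het-2042, and 2163, 87356, 102022 and 1821 in KO-2079, KO-2070, KO-2124 and KO-2126. In CPM these were 1.47, 117 and 212 in WT, 9014, 252 and 166 in Het, and 134, 11510, 4704 and 184 in KO libraries. Thus 1 of 3 Het and 2 of 4 KO mice were at 4704 CPM or more, and the other 7 mice, all 3 WT mice among them, at 252 CPM or less. Het mice and KO mice were thus found on both sides of this gap, and the remaining KO values, 134 and 184 CPM, lay within the WT range.

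The gap in Ctrc was among the widest in the table. Of the 13688 genes tested, ordered by the largest step in log2 CPM between neighbouring libraries with at least 2 libraries on each side, Ctrc ranked 1, with a step of 4.22, and Ceacam2 next with the same step to 2 decimals, which set a different group of libraries apart. Steps of 3 or more were found in 4 genes and of 2 or more in 52; this measure was chosen after the values of Ctrc had been seen. Relative to Cela2a, whose gene model it overlaps in GENCODE, Ctrc had 8.08% to 8.77% as many counts in Het-2066, KO-2070 and KO-2124 and 0.160% to 0.301% in the other 7 libraries. Cela2a itself did not separate these libraries, with 53823 CPM in KO-2124 and 121509 CPM in Het-1770. The overlapping Casp9 did not either, at 51.9, 102 and 97.0 CPM in Het-2066, KO-2070 and KO-2124 beside 10.6 to 100 CPM elsewhere. The labels do not give the strain background of the mice, and its part in the Ctrc levels was not tested. Whether reads of Cela2a were counted as Ctrc was not tested either; of the 50-base windows of the Cela2a transcript, 25.6% also occur in a GENCODE transcript of Ctrc.

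The fold change of Ctrc between groups moved with single libraries. KO against WT gave a log2 fold change of 5.23 (SE 2.25, edgeR unadjusted p = 0.0409, adjusted p = 0.195) and Het against WT 4.84 (SE 2.24, edgeR adjusted p = 0.260). DESeq2 gave 5.21 for KO against WT with an adjusted p of 0.0470, and called 2.24% of its genes higher in KO and 1.32% higher in Het libraries; Ctrc in Het against WT was not among the latter (adjusted p = 0.111). Without Het-2066 the Het against WT value fell to 0.93, and without KO-2070 that of KO against WT to 3.93; without WT-2404 the latter was 4.63. The difference between KO and Het was 0.39 (SE 1.80, edgeR adjusted p = 1.0) and ran from -0.91 without KO-2070 to 4.31 without Het-2066.

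Of the elastases, Cela1 and Cela2a were the most abundant per kilobase of transcript in all libraries but WT-2404, where Cela3b was. Cela1 encodes elastase 1, an elastase that human acinar cells do not make. It stood at 753, 27201 and 55156 CPM in the WT libraries, 100946, 98384 and 59116 CPM in the Het libraries and 55917, 105452, 55415 and 103892 CPM in the KO libraries. Every Het and KO library was above every WT library, but the margin between KO-2124 and WT-2067 was only that between 55415 and 55156 CPM. The fitted difference on the log2 scale was 1.53 for KO against WT (SE 1.04, edgeR adjusted p = 0.379) and 1.64 for Het against WT (SE 1.09, edgeR adjusted p = 0.395), larger than that of the other genes apart from Ctrc but with a wide error. Without WT-2404 these values were 0.94 and 1.07.

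Cela2a, elastase 2A, followed Cela1 closely. It was at 575, 38822 and 70540 CPM in the WT libraries, 102735, 121509 and 66882 CPM in the Het libraries and 54324, 142535, 53823 and 114804 CPM in the KO libraries. WT-2067 was above Het-2042, KO-2079 and KO-2124, so the groups overlapped. The ratio of Cela2a to Cela1 counts was 0.763 in WT-2404 and 0.971 to 1.43 in the others. KO against WT gave a log2 fold change of 1.32 (SE 1.11, edgeR adjusted p = 0.481), and 0.72 without WT-2404.

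Cela3b encodes elastase 3B. Its level was 978, 13797 and 26084 CPM in the WT libraries, 30443, 37947 and 29395 CPM in the Het libraries and 24983, 37785, 20104 and 39132 CPM in the KO libraries. The Het and WT ranges did not overlap, whereas WT-2067 was above KO-2079 and KO-2124. The fold changes were 1.16 in KO against WT on the log2 scale (SE 0.85, edgeR adjusted p = 0.416) and 1.26 in Het against WT (SE 0.90, edgeR adjusted p = 0.426), and without WT-2404 they were 0.60 and 0.72.

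Its neighbour Cela3a was nearly silent by the counts. Cela3a had 1, 80 and 32 counts in the WT libraries, 26, 58 and 26 in the Het libraries and 34, 52, 69 and 28 in the KO libraries, or 0.0167 to 6.85 CPM; 1 count in WT-2404 is below the 3 counts that a count of 0 would allow. For each count of Cela3a there were 3153 (WT-1860) to 58551 (WT-2404) counts of Cela3b. Their transcripts were identical at 94.9% of 916 aligned bases, and 34.2% of the 50-base windows of Cela3a also occur in Cela3b. The levels of both genes are uncertain to the extent that reads from shared stretches were dropped or assigned to 1 of them, and this touches Cela3a most, given the ratio. Its KO against WT log2 fold change of 0.85 (SE 1.01, edgeR adjusted p = 0.629) fell to 0.20 without WT-2404, and its order among libraries was not that of Cela3b, with WT-1860 holding the most counts.

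**Figure D2:**
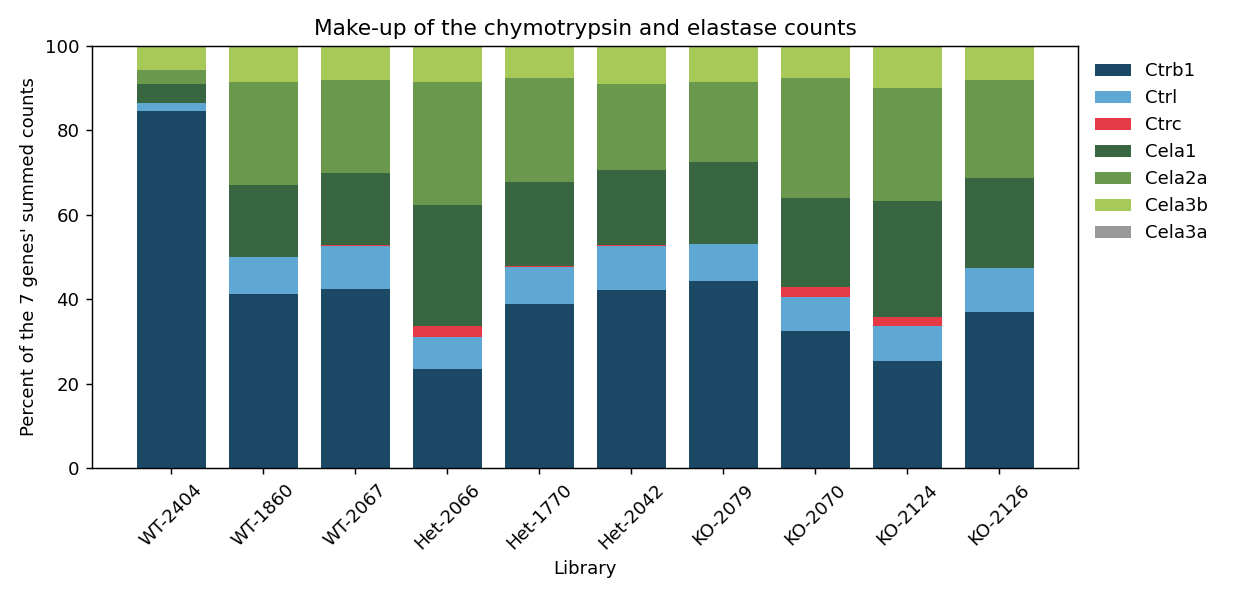
Share of each gene in the summed counts of the 7 genes, as stacked percentages for each library. Ctrb1 takes 84.5% of the bar of WT-2404, and Ctrc is visible in Het-2066, KO-2070 and KO-2124, where it takes 2.30% to 2.56%; Cela3a is too rare to be seen.

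The genes did not vary as 1 block. In WT-2404 Ctrb1 made up 84.5% of the counts of the 7 genes, against 23.4% to 44.3% in the other 9 libraries, and Cela1 4.38%, against 17.0% to 28.6%. The ratio of Ctrb1 to Cela1 counts was accordingly 19.3 in WT-2404 and 0.818 to 2.47 elsewhere. As a share of all gene counts, Ctrb1 in WT-2404 was 5.13%, not far below the 6.86% of Het-2066 and the 6.98% of KO-2124, whereas Cela1 was at 0.266% there and at 4.24% to 8.38% elsewhere. The genes were therefore unequally low in WT-2404, with Ctrl, Cela1 and Cela2a the furthest below the other libraries among the abundant genes.

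A second, smaller difference in make-up set Het-2066 and KO-2124 apart. The ratio of Ctrb1 to Cela1 was 0.818 and 0.927 in them and 1.53 or more in the other 8 libraries. The ratio of Ctrl to Cela1 was lowest in the same libraries, at 0.264 and 0.294, and next lowest in KO-2070, at 0.383. The 3 libraries with high Ctrc counts were thus also the 3 with the lowest Ctrb1 to Cela1 ratio, KO-2070 coming next at 1.53. This was noticed in the values and was not tested.

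**Figure D3:**
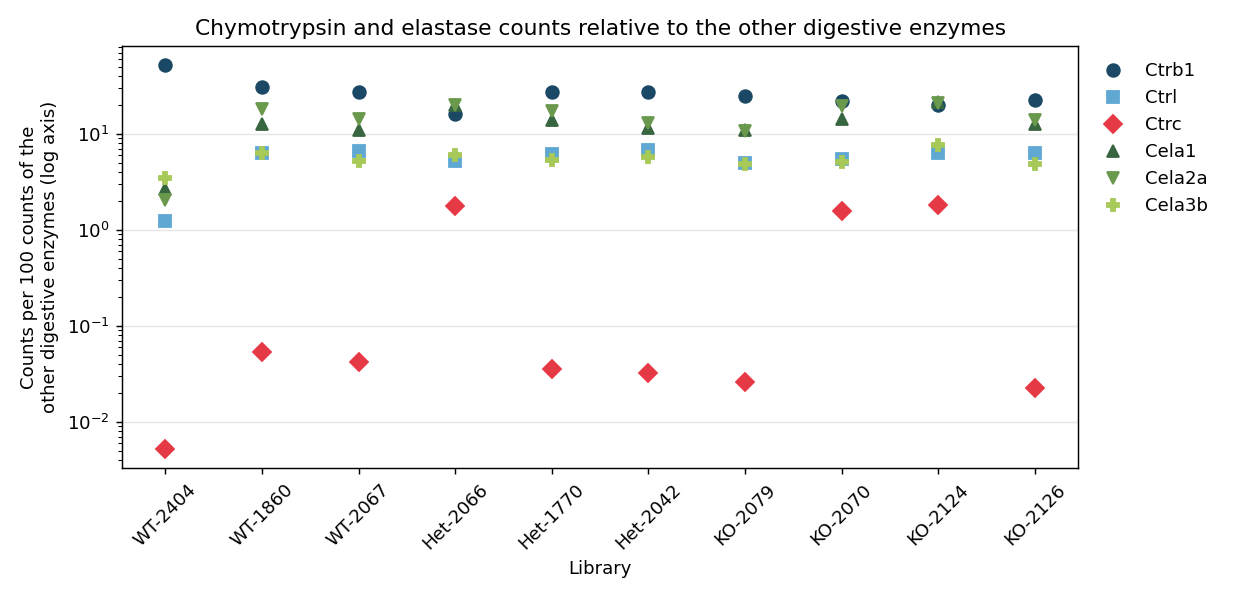
Counts of 6 of the genes per 100 counts of the other digestive enzyme genes (log axis) in each library; Cela3a, at 0.00203 or less, is left out. Ctrb1 is at 27.4 to 52.0 in WT, above the Het (16.2 to 27.2) and KO (19.8 to 25.0) libraries, and Ctrc falls into an upper range of 1.57 to 1.81 and a lower one of 0.0541 or less.

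Relative to the other digestive enzymes, Ctrb1 stood at 52.0, 30.5 and 27.4 counts per 100 of theirs in the WT libraries, 16.2, 27.2 and 27.1 in the Het libraries and 25.0, 22.1, 19.8 and 22.4 in the KO libraries. Every WT library was above every Het and KO library, though Het-1770, at 27.2, was close to WT-2067, at 27.4. Of the 7 genes, Ctrb1 was the only one whose ranges did not overlap in this direction, beside 2.73% of all genes tested for KO and 33.8% for Het, each lower than WT. The measure was looked at after its values had been seen, and the fit with this scaling gave -0.72 for KO against WT (SE 0.75, edgeR adjusted p = 0.356).

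Across the design, none of the 7 genes passed the threshold of an edgeR adjusted p of 0.05 in any of the 3 comparisons. Neither did any other gene, as 0.00% of the 13688 genes tested passed in each, while the unadjusted p was under 0.05 for 3222 genes between KO and WT, 2715 between Het and WT and 103 between KO and Het. DESeq2 called 1009, 400 and 0 genes in these comparisons, and Ctrc in the first of them was the only one of the 7. All 7 genes were tested, and all 7 had higher fitted levels in KO than in WT libraries, with a median log2 fold change of 1.16 beside 0.03 for all genes tested. In Het against WT, 7 of 7 were again higher, with a median of 1.26 beside 0.0046. These comparisons share the WT libraries. In KO against Het 2 were higher and 5 lower, with a median of -0.08 beside 0.0079.

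**Figure D4:**
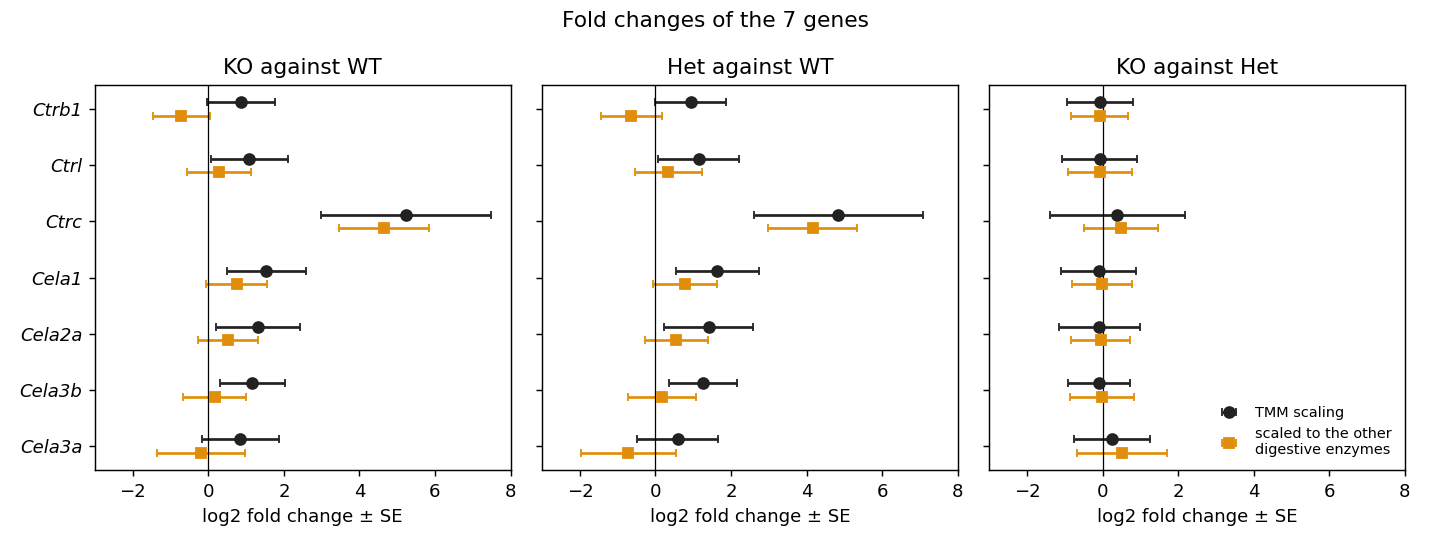
Log2 fold change with its standard error for each gene in the 3 comparisons, under TMM scaling (circles) and with libraries scaled to the other digestive enzymes (squares). Under TMM all 7 values lie above 0 in both comparisons with WT, from 0.85 to 5.23 and from 0.59 to 4.84, and near 0 in KO against Het; under the second scaling Ctrb1 and Cela3a lie below 0 in both comparisons with WT.

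Weaker criteria were met by few of the 7 genes. An unadjusted p under 0.05 with a higher level in KO was reached by 1 of the 7 genes, Ctrc, beside 9.61% of all genes tested; in Het against WT it was reached by 0 of 7, beside 8.26%, and in KO against Het by 0 of 7, beside 0.402%. Ranges that did not overlap, higher in KO than in WT, were found for 1 of 7, Cela1, beside 6.74% of all genes. In Het against WT they were found for Cela1 and Cela3b, beside 11.3%, and in KO against Het for none, beside 1.30%.

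When libraries were scaled to the other digestive enzymes, so that a change is read relative to those enzymes, Ctrb1 and Cela3a turned below 0 and the values of the other genes were smaller than under TMM. KO against WT was then -0.72 for Ctrb1, 0.27 for Ctrl, 0.76 for Cela1, 0.51 for Cela2a, -0.20 for Cela3a and 0.16 for Cela3b on the log2 scale. Ctrc stayed high, at 4.66 (SE 1.19, edgeR adjusted p = 0.00242), and at 4.17 in Het against WT (edgeR adjusted p = 0.00683). This fit used 1 spread trend shared by all genes, so these p-values do not measure the spread of Ctrc itself between mice. In the main fit the SE of Ctrc in KO against WT was 2.25. Ctrc was 1 of the 2 genes called higher under this scaling (0.0146% of all genes in each comparison with WT). The other was Amy2a5, an amylase gene counted at 0 in 7 libraries. Under this scaling the median log2 fold change of all tested genes was -2.71 between KO and WT and -2.97 between Het and WT. Without WT-2404 as well, no gene was called: Ctrc was at 4.15 (SE 2.87, edgeR adjusted p = 0.679), Ctrb1 at -0.37 (SE 0.21), Cela1 at 0.33 (SE 0.25) and Cela2a at 0.01 (SE 0.24).

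The other digestive enzymes lay in the same direction. Of 25 tested, 24 were higher in KO than in WT libraries, with a median log2 fold change of 1.14, and 0 passed; without WT-2404 the median was 0.61, beside 0.60 for the 7 genes. Pancreatic lipase, Pnlip, gave 1.55 (SE 1.05), carboxypeptidase A1, Cpa1, 1.25 (SE 0.93) and anionic trypsinogen, Prss2, 0.92 (SE 0.81), each with an edgeR adjusted p of 0.375 or more. Zymogen granule proteins were likewise higher in KO libraries in 8 of 8 cases, with a median of 1.05 (0.53 without WT-2404) and 0 passing, among them Gp2 (1.51) of the granule membrane and Zg16 (1.38) of the granule matrix.

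Of the genes that activate or inhibit these proteases, 12 were tested, 10 were higher and 2 lower in KO than in WT libraries, and 0 passed. Their median was 0.91, and 0.51 without WT-2404. This list repeats trypsinogen genes already counted with the other digestive enzymes (Prss1, Prss2, Prss3, Try4, Try5, Try10 and 2210010C04Rik), all of them higher. Outside these, Spink1, Serpini2 and Slpi were higher. The trypsin inhibitor Spink1 was at 182, 660 and 989 CPM in WT, 1413, 1579 and 1347 CPM in Het and 1205, 1830, 1266 and 1570 CPM in KO libraries. All Het and KO libraries were above all WT libraries, and KO against WT gave 1.27 on the log2 scale (SE 0.49, edgeR adjusted p = 0.157). Serpini2, a serpin made in the pancreas, gave 1.11. The lower ones were Serpina3n, a secreted serpin of the acute phase, at -2.12 (SE 0.57, edgeR adjusted p = 0.116), and Wfdc2, of the whey acidic protein family, at -1.38 (SE 0.53, edgeR adjusted p = 0.160).

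Of 12 acinar transcription factors tested, 9 were higher in KO than in WT libraries, with a median log2 fold change of 0.62 (0.32 without WT-2404) and 0 passing; 3 had an unadjusted p under 0.05. Of the PTF1 subunit genes, Ptf1a and Rbpjl were both at 0.62 (SE 0.48 and 0.79), whereas the E-protein genes Tcf3 and Tcf12 were at -0.52 (SE 0.21, edgeR unadjusted p = 0.0281, adjusted p = 0.170) and -0.10 (SE 0.16). Rbpj, the widely expressed relative of Rbpjl, was at -0.67 (SE 0.30, edgeR unadjusted p = 0.0479, adjusted p = 0.209). Bhlha15, which supports the secretory state of acinar cells, was at 1.07 (SE 0.73) and Nr5a2, a nuclear receptor of acinar cells, at 0.76 (SE 0.41). Without WT-2404, Ptf1a was at 0.18, Rbpjl at 0.06, Tcf3 at -0.30, Tcf12 at 0.06 and Rbpj at -0.19. Rbpjl was at 11.3 CPM in WT-2404 and at 189 to 516 CPM in the other 9 libraries, the highest being KO-2124. Its level did not separate WT-1860, at 367 CPM, from the Het and KO libraries.

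Proteases of leukocytes, some of which share the names elastase and chymase, were rare. Of 12 listed, 11 were in the table and 5 were tested; 4 were lower in KO than in WT libraries and 0 passed. Their median was -2.37, and -2.30 without WT-2404. Elane, neutrophil elastase, had 153 counts in WT-2404 and 0 to 3 in the other libraries. The mast cell protease gene Mcpt2 was at 15.5, 40.0 and 12.4 CPM in WT, 3.16, 7.64 and 18.5 CPM in Het and 5.26, 0.395, 6.36 and 1.01 CPM in KO libraries, with a KO against WT log2 fold change of -2.67 (SE 0.77, edgeR adjusted p = 0.121).

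Markers of other cell types differed between the same groups. Fibroblast markers were lower in KO than in WT libraries in 9 of 10 cases, with a median of -1.39 and summed levels of 1556 to 5535 CPM in WT, 628 to 1255 CPM in Het and 577 to 1414 CPM in KO libraries. Myeloid markers were lower in 9 of 9 (median -1.65; 315 to 1198 CPM in WT, 175 to 244 CPM in Het and 92.2 to 349.7 CPM in KO libraries), ductal markers in 7 of 10 (median -1.58; 813 to 1215, 393 to 831 and 349 to 676 CPM) and lymphoid markers in 8 of 8 (median -1.14; 12.9 to 30.0, 6.14 to 6.58 and 2.12 to 17.6 CPM). Acinar markers were higher in 8 of 8 (median 1.16; 11014 to 263263, 271716 to 373726 and 140505 to 458310 CPM), islet markers in 8 of 9 (median 0.77; 472 to 5643, 4912 to 9775 and 3567 to 8427 CPM), adipocyte markers in 6 of 6 (median 0.61; 32.7 to 43.3, 57.3 to 80.4 and 40.4 to 83.8 CPM) and endothelial markers in 4 of 5 (median 0.30; 86.9 to 142, 120 to 138 and 81.5 to 171 CPM). Without WT-2404 the medians were -1.17 for fibroblast, -0.88 for myeloid, -1.24 for ductal, -1.42 for lymphoid, 0.60 for acinar, 0.27 for islet, 0.63 for adipocyte and 0.18 for endothelial markers. All listed markers were in the table and tested, and none passed; the part of these cell types in the protease levels was not tested.

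By the rule fixed for likeness, the 5 genes outside the set whose log2 CPM followed the mean of the 7 most closely over the 10 libraries were Cml1, Psmb10, Cox17, Edaradd and Tmed11, with Pearson's r of 0.989, 0.987, 0.986, 0.983 and 0.983. Over the 9 libraries without WT-2404, r was 0.883, 0.894, 0.895, 0.882 and 0.816. All the points share library scaling, and the values are a description without a test. Psmb10, an immunoproteasome subunit, lies next to Ctrl on chromosome 8.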

How the data were processed

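RNA from 10 pancreas tail pieces was sequenced as stranded mRNA libraries, per the labels' protocols. The authors deposited raw counts per gene symbol, 1 column per mouse, and 0 columns were left over. DRAGEN, STAR, Cufflinks and the build mm10 are named, without roles or versions, per the submitters' processing notes; the counting tool, the annotation and the use of strand are not given in the sources used here, so overlapping genes are uncertain. A further part of the genotype that all groups share is not reported here. Excluded from every total and test were 2 rows that are not genes, reads in no feature (2.59% to 8.71% of a library's counts) and ambiguous reads (0.101% to 0.584%).

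Of 24421 genes, 13688 passed filterByExpr (minimum count 10). Genes were tested in R 4.3.3 with edgeR 4.0.16 (TMM factors, robust quasi-likelihood fit of the 3 groups over all 10 libraries, no covariates), with Benjamini-Hochberg adjustment over all genes tested and a threshold of 0.05. CPM used TMM-scaled library sizes, and log2 CPM a prior count of 2. The fit was checked on simulated data with 1 fixed spread for all genes. That check does not show how the fit does at the spread between these mice. Alternatives were DESeq2 1.42.0, its size factors, library size alone, all genes with at least 1 count, the compared groups alone, scaling to the other digestive enzymes and leaving out each library. In the fit scaled to those enzymes edgeR estimated 1 spread trend shared by all genes, so its p-values rest on that. Nothing in the labels gives litters or batches, and p-values measure the spread between these mice. Transcript sequences and gene models were taken from GENCODE M21, and aligned with Biopython 1.88; promoters are RefSeq's.

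The members and gene lists were chosen with earlier results of these data known. Named were the 7 genes, Insr, genes of the lists (other digestive enzymes, activation and inhibition, acinar transcription factors, granule proteins, leukocyte proteases, cell type markers) and the 5 genes most like the set by Pearson's r. Casp9, which overlaps Cela2a, the measure of gaps between libraries, the medians of the lists without WT-2404 and the Ctrb1 ranges relative to the other enzymes were added after the values had been seen.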

Additional observations from a re-analysis of the deposited data

Results flagged for a closer look

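The count of Cela3b per 100 counts of the other digestive enzymes was 7.75 in KO-2124, against 4.82 to 5.16 in the other 3 KO libraries, a gap that took up 0.884 of the group's range and passed Dixon's 95% critical value for 4 samples. In the same library all other digestive enzymes together made up 35.2% of gene counts, the lowest share outside the WT group. The check was made on 14 measures in the KO group, and chance alone marks about 1 in 20 such groups.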

How the results depend on the processing

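No paired analysis was possible because the groups share no mouse numbers. The count of genes past the threshold was 0 in all 3 comparisons in the main fit. In KO against WT it was 1009 with DESeq2, 2841 with library size alone and 9743 when scaled to the other digestive enzymes. With library size alone all were lower in KO, and the median log2 fold change of all genes was -1.17. In Het against WT the counts were 400, 3140 and 9533 in the same order, and the median with library size alone was -1.36. Leaving out 1 library at a time gave 0 to 1932 genes for KO and 0 to 1160 for Het, each against WT, both maxima without WT-2067, and 0 in KO against Het. Ctrc passed in KO against WT with DESeq2, and in both comparisons with WT when scaled to the enzymes. Directions turned under that scaling for Ctrb1 (-0.72 for KO and -0.64 for Het, each against WT) and Cela3a (-0.20 and -0.72). Without WT-2404 as well, they turned for Ctrb1 (-0.37 and -0.30), Ctrl (-0.18 and -0.11), Cela3a (-0.72 and -1.24) and Cela3b (-0.042 and -0.032). With library size alone, Cela3a turned in Het against WT (-0.35). In KO against WT no direction turned with that setting, but all values were smaller than with TMM. They were 0.11 for Ctrb1, 0.54 for Ctrl, 4.80 for Ctrc, 1.02 for Cela1, 0.75 for Cela2a, 0.099 for Cela3a and 0.60 for Cela3b.

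Leaving out 1 library moved KO against WT between 0.35 and 1.71 for Ctrb1, 0.48 and 2.24 for Ctrl, 3.93 and 6.14 for Ctrc, 0.94 and 2.53 for Cela1, 0.72 and 2.22 for Cela2a, 0.20 and 2.09 for Cela3a and 0.60 and 2.05 for Cela3b, lowest without WT-2404 except for Ctrc. In Het against WT the ranges were 0.46 to 1.78, 0.58 to 2.31, 0.93 to 5.74, 1.07 to 2.63, 0.83 to 2.31, -0.077 (without Het-1770) to 1.83 and 0.72 to 2.15 in the same order. In KO against Het they were -0.34 to 0.24, -0.35 to 0.12, -0.91 to 4.31, -0.31 to 0.035, -0.39 to 0.11, -0.18 to 0.93 and -0.24 to 0.031. No gene of the 7 passed in any of these. Depth limits only Cela3a, with 1 to 80 counts per library. The cause of these shifts was not tested.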
